A study of Mus musculus with 12 samples.

Results

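*Tyro3* and *Erbb4*, the genes of a pair of receptor tyrosine kinases, were examined in nucleus pulposus (NP) tissue of mice with and without a deletion of the gene of the glucose transporter GLUT1. They are 2 of the 37 genes that can be named on these arrays, out of 22206 probe sets in all, because names were at hand only for probe sets with 1 symbol in the authors' table of calls. That table lists probe sets with an unadjusted p under 0.05 and at least a 2-fold difference between the genotypes, so both genes were selected by the contrast that is described below, and their lower level in the knockouts is a description and not a test. The 6 control mice (WT) were littermates of genotype Glut1f/f, whose *Glut1* alleles are floxed but which carry no Cre. The 6 conditional knockouts (cKO) were K19Cre; Glut1f/f, in which a tamoxifen-inducible Cre is expressed from the keratin 19 gene. All 12 mice were injected with tamoxifen (100 μg per g body weight) on 3 consecutive days at 3 months of age, and the NP was collected at 9 months, with the discs of 1 mouse pooled on 1 Mouse Clariom S array. Cre is present in the cKO mice alone, so Cre itself and the loss of GLUT1 cannot be told apart here.

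Receptor tyrosine kinases span the cell membrane, bind a ligand outside the cell and phosphorylate tyrosines inside it. TYRO3 belongs to the TAM family with AXL and MERTK. Its ligands GAS6 and protein S bridge the receptor to phosphatidylserine on dying cells and membrane vesicles, and TYRO3 is best known from the nervous system. ERBB4 belongs to the family of the epidermal growth factor receptor and is activated by neuregulins, betacellulin and heparin-binding EGF. It is known for its part in heart and neural development, and proteases of the cell surface can cut it so that its intracellular part is released. The NP is the avascular, hypoxic centre of the intervertebral disc and derives from the notochord. The other receptors of these families and their ligands were not analysed here, since no name could be paired with their probe sets, and for the same reason the tissue label was not checked against markers of the NP.

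*Tyro3* (probe set TC0200001781.mm.2) spans 20365 bases of chromosome 2 (GRCm38, 119797740 to 119818104) and *Erbb4* (TC0100002503.mm.2) spans 1076693 bases of chromosome 1 (GRCm38, 68031884 to 69108576). Neither lies on chromosome 4, which holds the targeted gene *Slc2a1*, or on chromosome 11, which holds *Krt19*. RefSeq lists 4 transcripts of *Tyro3* and 5 of *Erbb4*. Each gene had 1 named probe set, and whether an unnamed one also measured it is not known. The exons that the probes match are not known from the sources used here, so isoforms were not told apart. The sequences around a transcription start are shown so that the starts of the genes, which differ in base composition, can be compared. They come from RefSeq (GRCm38.p6), 250 bases before and 50 after 1 start of each gene, in the direction of transcription, and for both genes the annotated gene extends farther upstream. *Tyro3* is read from the plus strand (chr2:119799264-119799563) and *Erbb4* from the minus strand (chr1:69108010-69108309). Capitals mark GCGTG or ACGTG on either strand, the core letters of the hypoxia response element that the hypoxia-inducible factors bind.
Tyro3: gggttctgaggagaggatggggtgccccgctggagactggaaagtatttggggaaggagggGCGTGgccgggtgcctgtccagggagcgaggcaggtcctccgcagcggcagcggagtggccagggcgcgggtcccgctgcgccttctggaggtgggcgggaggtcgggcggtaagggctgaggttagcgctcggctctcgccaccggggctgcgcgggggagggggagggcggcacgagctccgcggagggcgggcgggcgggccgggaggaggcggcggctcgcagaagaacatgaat
Erbb4: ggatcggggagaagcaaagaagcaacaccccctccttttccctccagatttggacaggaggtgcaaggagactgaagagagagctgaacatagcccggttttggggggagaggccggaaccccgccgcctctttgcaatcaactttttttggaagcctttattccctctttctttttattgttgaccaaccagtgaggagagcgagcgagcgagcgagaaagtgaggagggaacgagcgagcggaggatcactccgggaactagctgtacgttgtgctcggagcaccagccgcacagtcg

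The window of *Tyro3* is the richer in G and C, at 73.3% against 55.3% in *Erbb4*, and holds 31 CG dinucleotides against 17. Of all 32851 RefSeq windows of this length, 94.5% have a lower G and C content than that of *Tyro3* and 57.6% a lower one than that of *Erbb4*. GCGTG was found 1 time in *Tyro3*, at position -189 from the start, and at least 1 of the 2 hypoxia core words is present in 43.8% of all windows. GGGCGG, the GC box to which SP factors bind, was found 6 times in *Tyro3*, all on the strand shown, with the last 3 each overlapping the next by their ends, and is present in 35.7% of all windows. The windows of both genes lack TATAAA, which 13.6% of all windows hold, and the window of *Erbb4* has no match to any of these words.

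*Tyro3* was a gene of middling signal that was lower in the cKO mice. In WT mice 1 to 6 its log2 value was 7.52, 7.90, 5.90, 7.49, 8.01 and 7.98, a mean of 7.47 ± 0.80 (SD, n = 6). In cKO mice 1 to 6 it was 5.18, 6.40, 5.24, 6.33, 6.76 and 6.92, a mean of 6.14 ± 0.75 (SD, n = 6). The genotypes overlapped through a single control, WT mouse 3, whose value lay among those of the cKO mice, whereas the other WT mice lay above every cKO mouse. Among the cKO mice, 1 and 3 lay apart from the rest, at least 1.09 log2 units below them.

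*Erbb4* was brighter and was also lower in the cKO mice. Its log2 value was 8.46, 8.95, 10.21, 8.18, 9.42 and 8.43 in WT mice 1 to 6, with a mean of 8.94 ± 0.76 (SD, n = 6). In cKO mice 1 to 6 it was 8.14, 7.40, 6.87, 6.45, 8.06 and 9.05, with a mean of 7.66 ± 0.95 (SD, n = 6). Here the overlap came from a single knockout, cKO mouse 6, which lay above 4 of the WT mice, while the other cKO mice lay below every WT mouse. WT mouse 3, the lowest control for *Tyro3*, was the highest mouse of all for *Erbb4*.

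**Figure D1:**
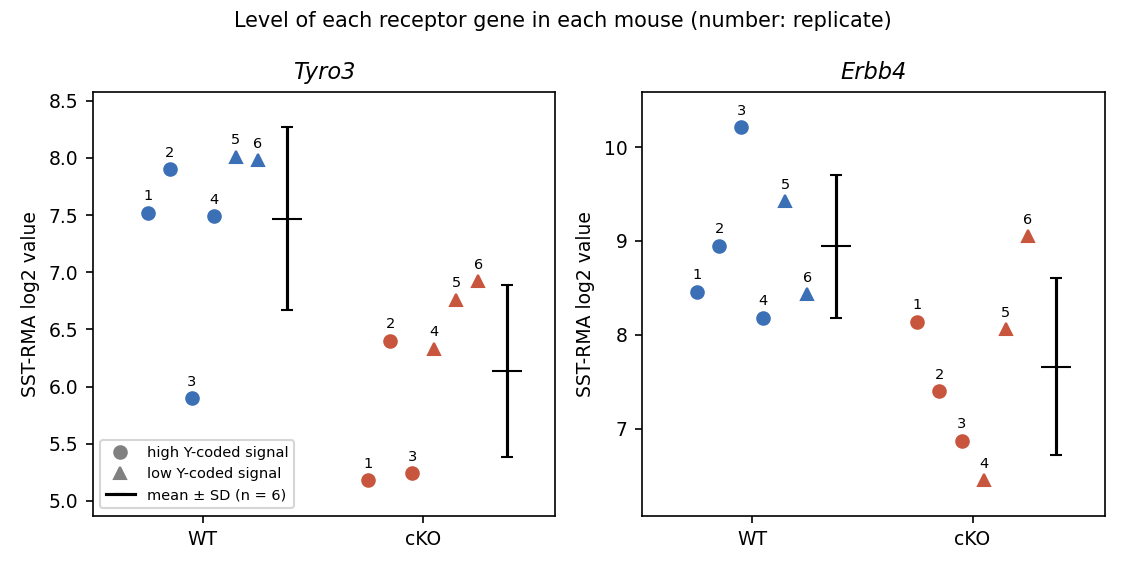
Log2 value of *Tyro3* (left) and *Erbb4* (right) in each of 6 WT and 6 cKO mice, numbered by replicate, with the mean ± SD of each genotype in black; circles and triangles are arrays of high and low signal from Y-coded probe sets. WT mouse 3 lies at 5.90 for *Tyro3* and at 10.21 for *Erbb4*, and cKO mouse 6 lies at 9.05 for *Erbb4*.

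The difference of means (cKO minus WT) was -1.33 for *Tyro3* (standard error 0.38) and -1.28 for *Erbb4* (standard error 0.41), so that the level on the linear scale was 60.2% and 58.8% lower in the cKO mice. They describe the contrast by which the genes were chosen. For each gene the cKO mouse lay below the WT mouse in 32 of the 36 possible pairs, as it did in at least as many pairs for 1.45% of all probe sets, and every cKO mouse lay below every WT mouse for 0.126%. Both genes were among the 12 probe sets (0.054% of all) that were at least 2-fold lower at an unadjusted p under 0.05 in limma, out of 25 (0.113%) in both directions (16 of 27 after quantile normalization), a count from which nothing can be read about genes chosen by the same contrast. By the size of the decrease of plain means alone, *Tyro3* ranked 17 and *Erbb4* 21 among the 45 probe sets (0.203%) with means at least 2-fold lower. The adjusted p was 0.929 for each gene in limma over all probe sets, where 1 probe set (0.0045%), that of *Slc2a1*, had a value under 0.05. *Slc2a1* itself, the check of the deletion, ranged from 18.86 to 19.31 in WT and from 17.76 to 18.31 in the cKO. In bulk tissue, fewer cells of a type and less RNA per cell cannot be told apart.

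At the edge of the selection, 2 genes just inside it were *Grem1*, the antagonist of bone morphogenetic proteins, and *Pim1*, a serine/threonine kinase, each with a difference of -1.01 by Tukey biweight averages. The unnamed probe sets just outside it had differences of -0.99 and -0.97. On that scale *Tyro3* differed by -1.51 and *Erbb4* by -1.06, so *Erbb4* lay the nearer to the edge. By the size of the biweight decrease alone, *Tyro3* ranked 102 and *Erbb4* 147 among all probe sets. These ranks take no account of p or of signal from Y-coded probe sets, which was high on 4 WT and 3 cKO arrays. With an unadjusted p under 0.05 in limma also required, 18 probe sets were at least 2-fold lower by biweight averages.

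The differences went with a wide spread within the genotypes. The SD between mice of 1 genotype was 0.78 for *Tyro3* and 0.86 for *Erbb4*, whereas its median was 0.33 both over the 2331 probe sets within 0.5 of the mean level of *Tyro3* and over the 1939 within 0.5 of that of *Erbb4*. At a similar level, 97.1% of the probe sets varied less than *Tyro3* and 95.2% less than *Erbb4*. The genotype differences amounted to -1.71 and -1.49 such SDs. The named genes nearest in mean level come from the same table of calls. Near *Tyro3*, the SD within genotype was larger for *Ptgds* (1.038) and smaller for *Ccdc7b* (0.543). Near *Erbb4*, it was larger for both *Dcn* (1.496) and *Serpina3n* (0.953). A wide spread was thus not particular to *Tyro3* and *Erbb4*, and whether selection at 2-fold favours it was not tested.

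**Figure D2:**
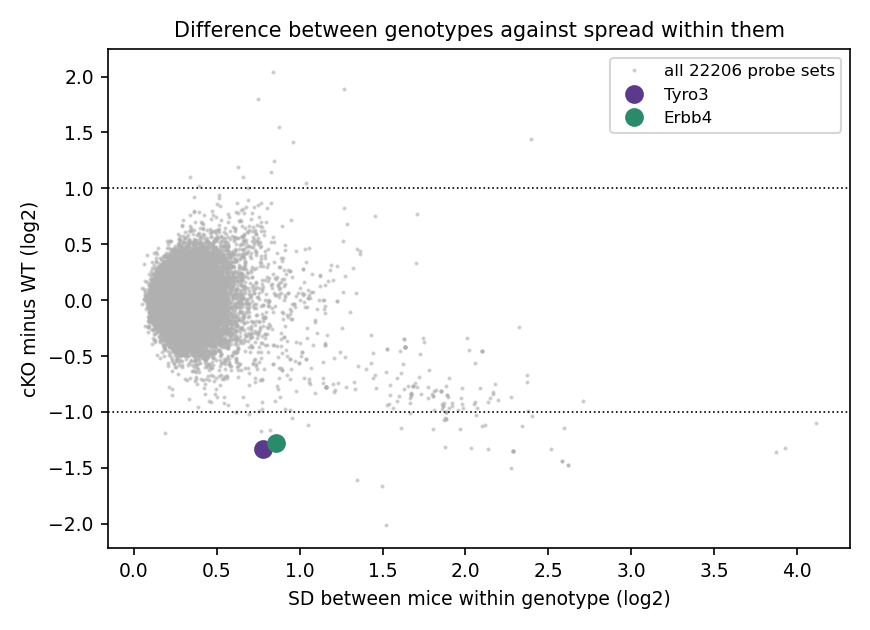
Difference between the genotypes (cKO minus WT, log2; dotted lines at 2-fold) against the SD between mice within genotype (log2) for all 22206 probe sets, with *Tyro3* and *Erbb4* as large points. Both lie below the 2-fold line, at SDs of 0.78 and 0.86.

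Leaving out each array in turn left both genes at least 2-fold lower in the cKO mice. For *Tyro3* the difference ran from -1.64 without WT mouse 3 to -1.14 without cKO mouse 1. For *Erbb4* it ran from -1.56 without cKO mouse 6 to -1.03 without WT mouse 3. Omission of WT mouse 3 thus moved the genes in opposite ways, since that mouse was low for one and high for the other. By medians the difference was -1.35 for *Tyro3* and -0.98 for *Erbb4*, the latter just under 2-fold.

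**Figure D3:**
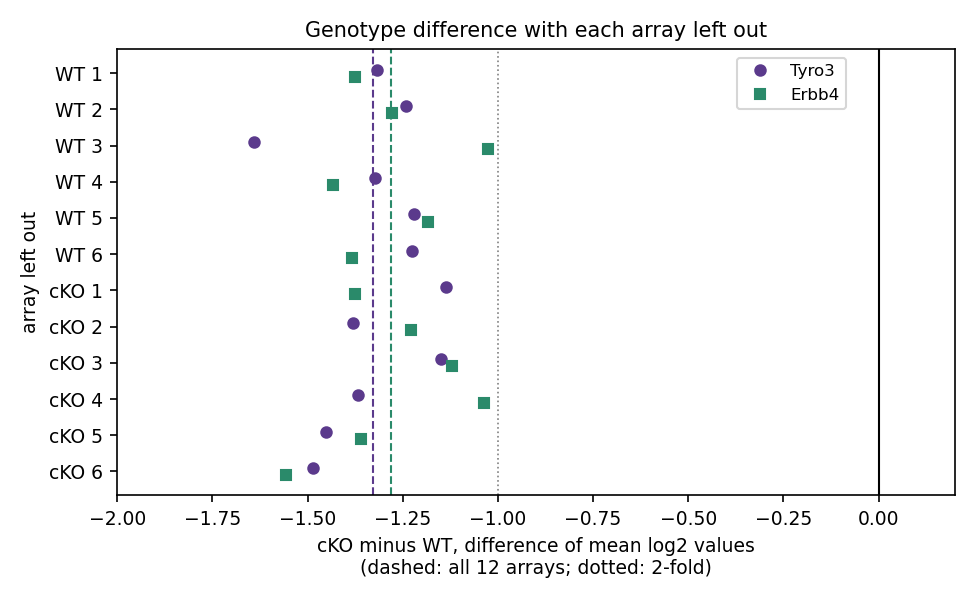
Difference between the genotypes (cKO minus WT, log2) for *Tyro3* and *Erbb4* when the array named on the vertical axis is left out; dashed lines give the differences over all 12 arrays and the dotted line 2-fold. The values run from -1.64 to -1.14 for *Tyro3* and from -1.56 to -1.03 for *Erbb4*, and all are decreases of more than 2-fold.

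On the array as a whole, both genes lay well below the brightest signals and within the range of many others. *Tyro3* exceeded 38.7% to 63.9% of the probe sets on the WT arrays (mean 57.5%) and at most 53.5% on the cKO arrays (mean 43.8%). *Erbb4* exceeded 65.1% to 82.2% on the WT arrays and 48.6% to 72.2% on the cKO arrays. *Slc2a1* exceeded 99.8% of the probe sets on the array where it ranked lowest. These ranks place each signal on its array and do not order the transcripts by abundance, since probe sets differ in how brightly they hybridize, and signal over background was not known. Among the named genes, the nearest to *Tyro3* in mean signal (6.80) were *Ptgds*, a prostaglandin D synthase (7.21), and *Ccdc7b* (6.29), and the nearest to *Erbb4* (8.30) were *Dcn*, the proteoglycan decorin (8.55), and *Serpina3n*, a serine protease inhibitor (8.66).

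*Tyro3* had a lower mean on arrays with signal from the Y chromosome, a difference that missed the threshold after adjustment. The 219 probe sets with a Y code in their identifier averaged 7.46 to 8.70 on 7 arrays (WT mice 1 to 4 and cKO mice 1 to 3) and 5.43 to 5.51 on the other 5, and the study's cohort held males and females, though the labels do not give the sex of a mouse. WT mice with high Y-coded signal were at 5.90 to 7.90 for *Tyro3*, below the 7.98 and 8.01 of those with low signal. Among the cKO mice the values were 5.18, 5.24 and 6.40 with high signal and 6.33 to 6.92 with low signal, which overlap. Averaged over the genotypes, *Tyro3* was 0.93 log2 units lower with high signal (-0.79 in WT and -1.06 in cKO; exact two-sided permutation within genotype, p = 0.0433). After adjustment over the 2 genes this permutation p was 0.0867, and without WT mouse 5, WT mouse 6 or cKO mouse 1 the unadjusted exact permutation p was 0.11, 0.11 or 0.0533. A difference held at an unadjusted p of at most 0.05 in the same direction for 4.7% of 20904 autosomal probe sets, and in either direction for 8.62%.

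*Erbb4* overlapped between high and low signal in both genotypes, with a difference of -0.18 (exact two-sided permutation p = 0.737). Mice with high signal ranged from 8.18 to 10.21 in WT and from 6.87 to 8.14 in cKO. With low signal, the WT mice were at 8.43 and 9.42, and the cKO mice lay from 6.45 to 9.05.

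The lower level in the cKO mice was present in both sets of arrays. Both genes were chosen for that lower level over these same arrays, so the split describes it and does not test it. Among arrays of high Y-coded signal the difference between the genotypes was -1.60 for *Tyro3* and -1.48 for *Erbb4*, and among those of low signal -1.33 and -1.07. The 2 WT mice of low signal lay above all 3 cKO mice of low signal for *Tyro3*, whereas for *Erbb4* these groups overlapped. The change in the difference from low to high signal was -0.27 for *Tyro3* and -0.41 for *Erbb4* (interaction term in limma, adjusted p = 1.00 for each).

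Whether the genes vary together was asked within the genotypes, after subtraction of each genotype's mean, since both were chosen for a lower mean in the cKO mice. Over the 12 mice no common variation was detected, with a Pearson r of -0.11 (two-sided permutation p = 0.744, or 0.895 adjusted over the 5 relations tested) and a Spearman rho of 0.23 (permutation p = 0.501, adjusted 0.836). Pearson's r was -0.66 among the WT mice (exact permutation p = 0.161, n = 6) and 0.36 among the cKO mice (exact permutation p = 0.461, n = 6). These values rested on few mice. *Tyro3* fell into 9 mice at 0.02 to 0.78 above the mean of their genotype and 3 mice, WT 3, cKO 1 and cKO 3, at 0.90 to 1.57 below it. WT mouse 3 and cKO mouse 1 were above the genotype mean for *Erbb4*, by 1.27 and 0.48, and cKO mouse 3 was below it, by 0.79. Without WT mouse 3 and cKO mouse 1, whose *Tyro3* deviations from the genotype mean were farthest from the median deviation, r was 0.68. Within genotype and Y-coded signal it was -0.27. At 12 mice the sign of the relation was therefore not settled, and 75.6% of all probe sets had a correlation with *Erbb4* larger in size than that of *Tyro3*.

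**Figure D4:**
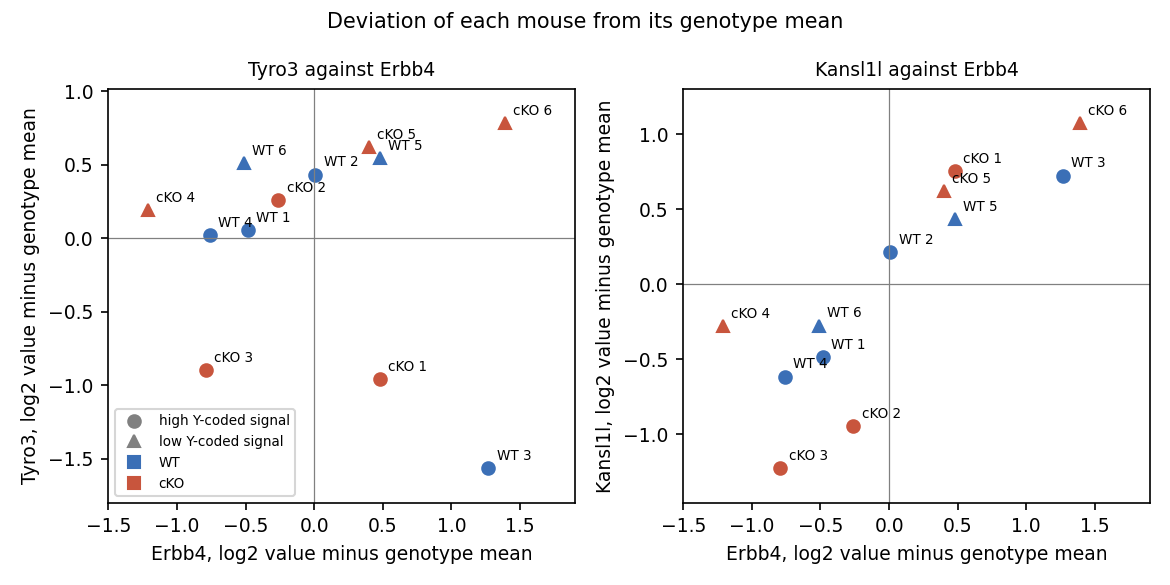
Log2 value of *Tyro3* (left) and *Kansl1l* (right) in each mouse, as the deviation from the mean of its genotype, against the same deviation of *Erbb4*; blue points are WT, red points cKO, circles high and triangles low Y-coded signal. *Tyro3* is spread over both signs with WT mouse 3, cKO mouse 1 and cKO mouse 3 lowest (r = -0.11), and *Kansl1l* rises with *Erbb4* (r = 0.84).

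The named gene whose pattern was most like that of *Erbb4* was *Kansl1l*, which encodes a protein like a subunit of the KAT8 histone acetyltransferase complex. Both genes are on chromosome 1, with *Kansl1l* at 66719243 to 66817596 (GRCm38), 1214287 bases before the nearer end of *Erbb4* and with 4 protein-coding genes between them. In WT mice 1 to 6 *Kansl1l* measured 9.77, 10.47, 10.98, 9.64, 10.69 and 9.98. In cKO mice 1 to 6 it measured 9.66, 7.96, 7.68, 8.63, 9.53 and 9.98. The order of the WT mice was nearly that of *Erbb4*, with mouse 3 highest and mouse 4 lowest in both, and cKO mouse 6 was the highest knockout in both. Over the 12 mice, with genotype means subtracted, r was 0.84 (rho 0.84; 0.96 in WT and 0.81 in cKO). It was 0.77 without WT mouse 3 and cKO mouse 6, the mice farthest from the median *Erbb4* deviation, and 0.88 within genotype and Y-coded signal. This r is given without a test because it was the highest of 36, and 11 unnamed probe sets had a higher one. The 3 probe sets between the pair in the order of the identifiers had an r with *Erbb4* of -0.35 to 0.07, and *Kansl1l* with *Tyro3* gave 0.05.

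Of the other named genes, *Plxdc2*, a membrane protein with a plexin domain, came next for *Erbb4* (r = 0.54), and *Tbc1d30*, *Scin* and *Ccdc7b* followed at 0.22 to 0.15. The genes that ran most against *Erbb4* were *Frmd5*, a FERM domain gene (-0.70), *Dbp*, a transcription factor driven by the circadian clock (-0.64), and *Dcn* (-0.62). For *Tyro3* the most like were *Enpp2*, the secreted enzyme autotaxin (0.63), and *Fbxw18*, an F-box gene (0.61), followed by *Serpina3n* (0.55), *Tbc1d30*, whose TBC domain is that of proteins which act on Rab GTPases (0.55), and *Grem1* (0.53). *Grem1* is on chromosome 2 as well, at 113748675 to 113758648. Most opposed to *Tyro3* were the Y-coded LOC100504460 (-0.63), *Eno2*, the neuronal enolase (-0.61), and the chemokine gene *Cxcl12* (-0.55). From low to high Y-coded signal, *Enpp2* differed by -0.997 and *Fbxw18* by -1.018, near the -0.928 of *Tyro3*. *Serpina3n*, *Tbc1d30* and *Grem1* differed by only -0.172, -0.18 and -0.068. The opposed genes differed by 1.53, 0.761 and 0.525. Only genotype means were subtracted for these correlations, and whether Y-coded signal contributes to them was not tested. Over all probe sets, 90% of the correlations with *Tyro3* lay between -0.58 and 0.56 and 90% of those with *Erbb4* between -0.50 and 0.52. All these correlations share the same 12 arrays.

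No relation with the level of the targeted transporter was detected within the genotypes. The array signal of *Slc2a1* itself varied little there (SD 0.16 in WT and 0.21 in cKO), which limits what a correlation with it can show. With *Slc2a1*, r was -0.47 for *Tyro3* (permutation p = 0.145, rho -0.26 with p = 0.429) and 0.05 for *Erbb4* (permutation p = 0.895, rho 0.00 with p = 0.994). Without WT mouse 2 and cKO mouse 3, the farthest from the median *Slc2a1* deviation from the genotype mean, r was -0.23 and 0.48. With the leading axis of variation over 20866 autosomal probe sets, which held 27.6% of their variance within the genotypes, r was -0.29 for *Tyro3* (permutation p = 0.434, rho 0.08 with p = 0.801) and 0.36 for *Erbb4* (permutation p = 0.231, rho 0.26 with p = 0.403). Without WT mice 2 and 3, the farthest from the median of that axis, these became 0.46 and 0.18. The pooled value for *Tyro3* joined opposite signs, with an r of -0.65 in WT (exact permutation p = 0.142, rho -0.37 with p = 0.497) and of 0.71 in cKO (exact permutation p = 0.101, rho 0.89 with p = 0.0333). These p-values within a genotype are not adjusted, and the difference between the genotypes was not tested. Without WT mouse 3 alone the pooled r of *Tyro3* with the axis was 0.30, so its negative sign rested on that mouse. For *Erbb4* r with the axis was 0.42 in WT and 0.45 in cKO, and with *Slc2a1* it was 0.05 in each. For *Tyro3* with *Slc2a1* it was -0.19 in WT and -0.72 in cKO (exact permutation p = 0.689 and 0.104). Over the 12 mice, none of the 5 relations passed 0.05 (adjusted permutation p = 0.577 to 0.895 for r), and missing it does not show that the genes vary independently.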

How the data were processed

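NP RNA of 6 WT and 6 cKO mice was measured on 12 Mouse Clariom S arrays. The log2 values deposited by the authors come from SST-RMA normalization in Expression Console. They ran from 2.43 to 19.72, with array medians of 6.55 to 6.66. SST-RMA pulls the arrays to a common distribution, so a shift of most genes would not be seen. From the authors' table of calls, whose averages, fold changes and p-values were not used, only the gene symbols of probe sets were taken (37 of 39 with 1 symbol). The members and gene lists were chosen with earlier results of these data known.

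All 22206 probe sets were fitted with limma 3.58.1 (lmFit and eBayes, R 4.3.3) without covariates or a filter, with Benjamini-Hochberg adjustment. Relations within genotype were tested by two-sided permutation (100000 resamples within genotype, exact over 6 mice, and exact over all assignments within genotype for the Y-coded signal). The number of arrays limits the precision, and each array is 1 mouse. The routines were tested on simulated data. Named beside the members were the targeted gene, the 5 most and 3 least alike in pattern, the 2 nearest in level and those at the edge of the selection. Tissue markers, related receptors and ligands had no paired names, and their planned tests were not run. Promoters and positions are from RefSeq (GRCm38).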

Additional observations from a re-analysis of the deposited data

Results flagged for a closer look

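Of 8 groups of 6 values examined (*Tyro3*, *Erbb4*, *Slc2a1* and *Kansl1l* in each genotype), 1 had a single mouse lying well apart. About 1 group in 20 would do so by chance. *Tyro3* was 5.90 in WT mouse 3, while the other WT mice were at 7.49 to 8.01, and the gap made up 0.75 of the range of the group. The same mouse had the highest *Erbb4* and *Kansl1l* values of all 12 mice, at 10.21 and 10.98, and its *Slc2a1* value of 19.23 lay within the range of the other WT mice. Without it the genotype difference was -1.64 for *Tyro3* and -1.03 for *Erbb4*.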

How the results depend on the processing

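The differences of *Tyro3* and *Erbb4* were -1.64 to -1.14 and -1.56 to -1.03 on leaving out an array, which can move the mean of 6 mice only a little. Other scalings, averages, weights and divisions by Y-coded signal gave -1.60 to -1.26 and -1.48 to -0.98. At an unadjusted p under 0.05 and 2-fold, 25 probe sets (12 lower) were called, against 39 with biweight averages and 40 (26 lower) in the fit blocked on replicate number. Omitting an array gave 21 to 45 (10 to 27 lower), the most without WT mouse 2 (45), WT mouse 6 (39, 27 lower) and WT mouse 5 (24 lower). With array weights 21 were lower, and by the exact Wilcoxon test 7. At an adjusted p of 0.05 the 1 probe set became 2 with the Y-coded covariate, 0 by the exact Wilcoxon test (which gave 1062 without adjustment, where limma gave 1151) and 1 to 2 on leaving out an array. The cause was not tested. Whether the replicate numbers pair the mice is not known. Same-numbered mice deviated with a correlation of -0.26 (number 4) to 0.39, and 2 of 12 arrays were closest to their own number. Apart from number 4, the mice of a number were alike in high or low Y-coded signal, so these values cannot settle the pairing. The block gives the same differences of -1.33 and -1.28 by construction, as each number holds 1 mouse of each genotype, and bears on neither their size nor the pairing.

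The relation of *Tyro3* with *Erbb4* (r = -0.11) turned positive as Spearman's rho (0.23), among cKO mice alone (0.36) and without WT mouse 3. It was also positive (0.68) without the 2 mice farthest from the median *Tyro3* deviation. It ranged from -0.39 to 0.40 on leaving out an array. On leaving out an array, *Erbb4* with *Slc2a1* ranged from -0.17 to 0.33, negative without WT mouse 3 or cKO mouse 4, *Tyro3* with the leading axis from -0.44 to 0.30, positive without WT mouse 3, and *Erbb4* by Y-coded signal from -0.53 to 0.12, positive without WT mouse 5 (0.07) or cKO mouse 6 (0.12). *Tyro3* by Y-coded signal ranged from -1.13 to -0.71 and no longer passed an unadjusted 0.05 without WT mouse 5, WT mouse 6 or cKO mouse 1 (exact permutation p = 0.11, 0.11 and 0.0533). These alternatives for *Slc2a1*, the axis and the Y-coded signal were chosen after the data were seen. The tests of related receptors and ligands were not run for want of names, and signal over background, which limits dim probe sets, was not known.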
